A study of Mus musculus with 2 samples.

Results

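The 37 genes described here encode nuclear receptors, nearly all outside the classical steroid receptors, of which only *Pgr*, the progesterone receptor gene, is among them. They were taken by symbol from the 32285 genes of the feature table, and all 37 had at least 1 unique molecular identifier (UMI, 1 counted RNA molecule) in the nuclei kept. The study profiled nuclei of whole frozen mouse testes at E14.5 (an embryonic day), from a cross of Nr5a1-cre with Rosa-tdTomato mice, in which Cre driven from *Nr5a1* switches on a red fluorescent reporter in the NR5A1 lineage. RNA and open chromatin (ATAC) were read from the same nuclei, with 1 library of each, and the number of embryos behind them is not stated. With 1 library per assay nothing was replicated, so no test was possible, and the 95% intervals given throughout cover counting error at most.

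Nuclear receptors are transcription factors that bind DNA through a pair of zinc fingers, usually at copies of a short half-site, and many change their activity when a small lipid-soluble ligand enters the ligand-binding domain. Retinoic acid, thyroid hormone, vitamin D, fatty acids, bile acids and oxysterols are ligands of different members, and several of those receptors bind DNA as partners of a retinoid X receptor. Others, such as the REV-ERB, NR4A and NR6A1 proteins, repress or activate genes with haem, with no classical ligand or as orphans.

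After filters, 7198 nuclei were kept, with a median of 7948 UMIs and 4477 ATAC fragments per nucleus, and every barcode was shared by the RNA and ATAC libraries. Clusters were named "-like" from marker genes, without using the members. There were 3281 progenitor-like, 973 germ-like, 830 Sertoli-like, 794 Leydig-like, 393 mesonephric mesenchyme-like and 563 surface epithelium-like nuclei, and 46 to 95 nuclei in each of the endothelial-like, *Pax8*-led, immune-like, pericyte-like and erythroid-like classes. The progenitor-like class held 1067 of the 1068 nuclei that a finer clustering called contractile-like (peritubular and capsule smooth muscle), 32.5% of the class. Leydig marker RNA (*Cyp17a1*, *Cyp11a1*, *Hsd3b1*, *Star*, *Insl3* and *Scarb1*) summed to 5536 CPM (UMIs of a gene per 1000000 UMIs) in Leydig-like nuclei and to 296 to 784 CPM in every other class, while germ cell markers summed to 1398 CPM in germ-like nuclei and to 22.2 to 178 CPM elsewhere. The *Pax8*-led class got no name from the marker rule. Its supporting-cell markers, *Pax8* among them, summed to 762 CPM, against at most 175 CPM elsewhere. Its surface epithelium markers summed to 1749 CPM, close to the 1955 CPM of surface epithelium-like nuclei.

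Of the 37 members, 27 had at least 100 UMIs. Of these, 19 (70.4%) stood at least 2-fold above all other nuclei in some class with 20 or more of their UMIs, set beside 51.2% of the 15216 genes measured at that depth. By class, 6 members led in Leydig-like nuclei, 22.2% of the 27 against 7.35% of all genes. There were 5 in germ-like nuclei (18.5% against 16.4%), 4 in Sertoli-like (14.8% against 7.77%), 2 in surface epithelium-like (7.41% against 5.3%), 2 in mesonephric mesenchyme-like (7.41% against 3.87%), 2 in immune-like (7.41% against 4.69%), 1 in progenitor-like (3.7% against 6.22%) and 1 in *Pax8*-led nuclei (3.7% against 3.9%). A gene could lead in more than 1 class. None of the 27 led in endothelial-like, pericyte-like or erythroid-like nuclei in these classes, for which the share of all genes was not computed. The endothelial-like level of *Nr2c1*, an orphan receptor gene, was 45.5 CPM here. Once nuclei above Scrublet's automatic doublet threshold were removed, it was 87.0 CPM (63.7 to 116), on 46 UMIs, against at most 45.0 CPM in any other class there.

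**Figure D1:**
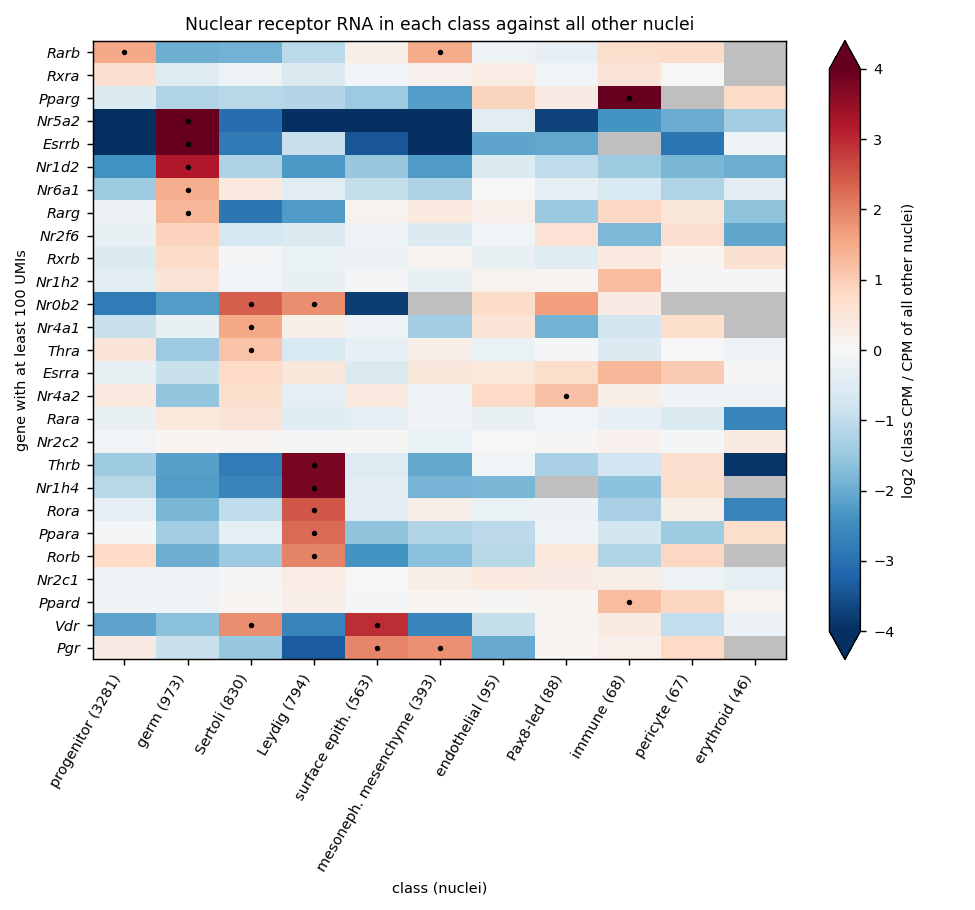
Level of each of the 27 members with at least 100 UMIs in each class relative to all other nuclei, as the log2 ratio of CPM. Columns are the 11 classes, dots mark classes at least 2-fold above the rest with 20 UMIs or more, and grey marks 0 UMIs. *Rora*, *Thrb*, *Ppara*, *Rorb* and *Nr1h4* share the Leydig-like column, and *Nr5a2*, *Esrrb*, *Nr1d2*, *Nr6a1* and *Rarg* the germ-like one.

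*Rora* (chr9:68653786-69388246, plus strand) encodes a retinoic acid receptor-related orphan receptor that activates clock and metabolic genes. It was the most counted member, with 93227 UMIs. It measured 4447 CPM in Leydig-like nuclei (4403 to 4491), followed by 1429 in pericyte-like, 1418 in mesonephric mesenchyme-like, 1037 in *Pax8*-led, 1027 in progenitor-like, 1022 in endothelial-like, 909 in surface epithelium-like, 640 in Sertoli-like, 490 in immune-like, 424 in germ-like and 197 CPM in erythroid-like nuclei. The Leydig-like level stood apart from all others at 5.62 times all other nuclei (5.54 to 5.69), the pericyte-like and mesonephric mesenchyme-like levels lay within each other's interval, and so did those of *Pax8*-led, progenitor-like and endothelial-like nuclei. After each nucleus was thinned to 2000 UMIs, 96.3% of Leydig-like nuclei (94.8% to 97.5%) still had a *Rora* UMI, with 29.5% of germ-like nuclei as the lowest share among classes of at least 300 nuclei. Unthinned, these shares were 98.7% and 68.4% at median depths of 9582 and 15521 UMIs. When Scrublet's automatic doublet threshold was used, the *Rora* level was 131 CPM in germ-like, 145 in immune-like and 5028 CPM in Leydig-like nuclei.

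*Thrb* (chr14:17660261-18038090, plus strand) encodes thyroid hormone receptor beta. Its level was 406 CPM in Leydig-like nuclei (392 to 419), 114 in pericyte-like, 67.0 in endothelial-like, 51.8 in surface epithelium-like, 42.4 in immune-like, 33.6 in progenitor-like, 29.4 in *Pax8*-led, 20.3 in germ-like, 18.0 in mesonephric mesenchyme-like, 11.7 in Sertoli-like and 4.86 CPM in erythroid-like nuclei. The Leydig-like level was 14.0 times that of all other nuclei (13.2 to 14.8), and pericyte-like nuclei stood above every remaining class. At 2000 UMIs per nucleus, 49.2% of Leydig-like nuclei had a *Thrb* UMI against 1.33% of Sertoli-like nuclei. The unthinned shares were 81.0% and 6.39%, at median depths of 9582 and 9833.5 UMIs. At the automatic doublet threshold *Thrb* was 461 CPM in Leydig-like, 20.8 in endothelial-like, 7.96 in germ-like and 3.58 CPM in Sertoli-like nuclei, and 78.9% of its germ-like and 77.4% of its Sertoli-like UMIs lay in nuclei above that threshold.

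The other thyroid hormone receptor gene, *Thra* (chr11:98740638-98769006), followed a different order. It measured 154 CPM in Sertoli-like nuclei (146 to 162), 102 in progenitor-like, 96.0 in mesonephric mesenchyme-like, 81.6 in pericyte-like, 78.4 in *Pax8*-led, 70.5 in erythroid-like, 67.5 in endothelial-like, 64.5 in surface epithelium-like, 55.6 in immune-like, 55.3 in Leydig-like and 35.1 CPM in germ-like nuclei. Sertoli-like nuclei were 2.22 times all others (2.09 to 2.35), and the class that led for *Thrb* was next to last for *Thra*. With nuclei above the automatic doublet threshold removed, *Thra* was 12.3 CPM in germ-like, 24.6 in endothelial-like and 36.3 CPM in immune-like nuclei, beside 46.2 CPM in Leydig-like nuclei. The 3′ end of *Thra* overlaps that of *Nr1d1*, on the other strand, by 1075 bp, and the sources do not say whether strand was used in counting, so reads of this stretch could count for either gene. *Nr1d1*, a haem-binding clock repressor, had 50 UMIs in all.

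*Rorb* and *Ppara* were lower but led in the same class. *Rorb*, a relative of *Rora* known mostly from retina and brain, measured 29.6 CPM in Leydig-like nuclei (26.1 to 33.4), 17.5 in pericyte-like, 14.1 in progenitor-like, 13.4 in *Pax8*-led, 4.73 in endothelial-like, 4.39 in immune-like, 3.97 in Sertoli-like, 3.22 in both germ-like and mesonephric mesenchyme-like and 2.0 CPM in surface epithelium-like nuclei, with 0 UMIs in erythroid-like nuclei. The automatic doublet threshold changed the order below Leydig-like nuclei, with *Rorb* at 32.3 CPM in Leydig-like, 16.8 in progenitor-like, 2.14 (1 UMI) in pericyte-like, 0.716 in Sertoli-like and 0.452 CPM in germ-like nuclei and 0 UMIs in endothelial-like and immune-like nuclei. *Ppara*, the fatty acid receptor that drives fat oxidation, measured 64.8 CPM in Leydig-like nuclei (59.6 to 70.3), 31.6 in erythroid-like, 19.1 in progenitor-like, 17.8 in *Pax8*-led, 15.5 in Sertoli-like, 11.7 in immune-like, 9.45 in endothelial-like, 8.93 in germ-like, 8.69 in mesonephric mesenchyme-like, 7.28 in pericyte-like and 6.72 CPM in surface epithelium-like nuclei. The Leydig-like levels were 3.98 times (3.42 to 4.63) and 4.78 times (4.30 to 5.31) those of all other nuclei. The erythroid-like *Ppara* value rests on 13 UMIs, with an interval of 16.8 to 54.1 CPM. At the automatic doublet threshold it was 52.0 CPM on 11 UMIs (26.0 to 93.1), germ-like *Ppara* was 3.89 CPM and endothelial-like nuclei had 0 UMIs.

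*Nr1h4* encodes the bile acid receptor FXR, and *Nr0b2* the short partner SHP, which has no DNA-binding domain and in liver is induced by FXR. *Nr1h4* measured 25.3 CPM in Leydig-like nuclei (22.1 to 28.8), 7.28 in pericyte-like, 3.45 in surface epithelium-like, 2.501 in progenitor-like, 1.46 in immune-like, 1.29 in both mesonephric mesenchyme-like and endothelial-like, 1.22 in germ-like and 0.814 CPM in Sertoli-like nuclei, with 0 UMIs in *Pax8*-led and erythroid-like nuclei. The ratio to all other nuclei, 13.8 (11.02 to 17.3), was as high as that of *Thrb* within error. *Nr0b2*, with 181 UMIs, was chosen after its values were seen. It measured 8.03 CPM in Sertoli-like (6.36 to 10.0), 7.13 in *Pax8*-led, 6.57 in Leydig-like (4.99 to 8.49), 3.87 in endothelial-like, 2.93 in immune-like, 0.634 in germ-like, 0.459 in progenitor-like and 0.182 CPM in surface epithelium-like nuclei, with 0 UMIs in mesonephric mesenchyme-like, pericyte-like and erythroid-like nuclei. The Sertoli-like and Leydig-like levels of *Nr0b2* overlapped, at 5.29 (3.89 to 7.17) and 3.64 times (2.62 to 5.02) all other nuclei, whereas *Nr1h4* was lowest in Sertoli-like nuclei among the classes where it was seen. Without nuclei above the automatic doublet threshold, *Nr0b2* was 9.74 CPM in Sertoli-like, 7.53 in Leydig-like and 0.271 CPM in germ-like nuclei, with 0 UMIs in endothelial-like nuclei.

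**Figure D2:**
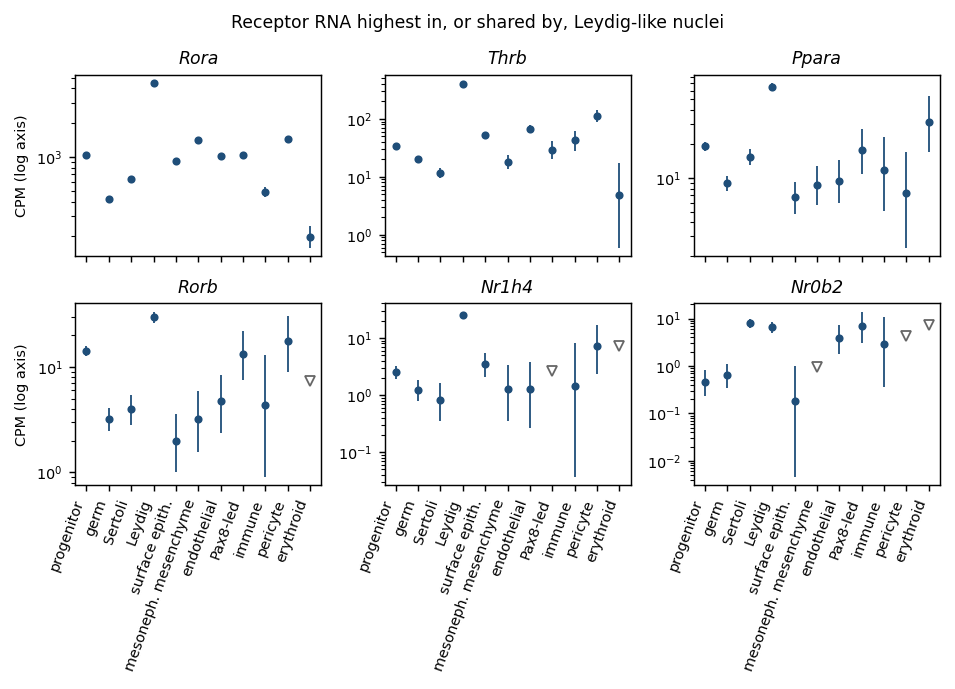
CPM of *Rora*, *Thrb*, *Ppara*, *Rorb*, *Nr1h4* and *Nr0b2* in each of the 11 classes on a log axis, with exact Poisson 95% intervals; open triangles stand for 0 UMIs and are drawn at the level of 3 counts. The Leydig-like point is highest for the first 5 genes, from 25.3 CPM for *Nr1h4* to 4447 CPM for *Rora*, and for *Nr0b2* it overlaps the Sertoli-like point.

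Leydig marker RNA in other classes gives a scale for these levels. In progenitor-like nuclei it stood at 7.22% of its Leydig-like level, *Thrb* at 8.27%, *Nr1h4* at 9.90%, *Rora* at 23.1%, *Ppara* at 29.4% and *Rorb* at 47.8%. In pericyte-like nuclei the marker RNA stood at 14.2%, *Ppara* at 11.2%, *Thrb* at 28.0%, *Nr1h4* at 28.8%, *Rora* at 32.1% and *Rorb* at 59.1%. Of these, pericyte-like *Rorb*, *Nr1h4* and *Ppara* rest on 12, 5 and 5 UMIs. At the automatic doublet threshold pericyte-like *Rorb* was 2.14 CPM on 1 UMI, against 32.3 CPM in Leydig-like nuclei. Pericyte-like *Rora*, *Thrb*, *Nr1h4* and *Ppara* were then 1317, 98.3, 8.55 and 8.55 CPM. The part of Leydig RNA from outside the nucleus in these values was not tested.

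The sequences below show what lies at the Leydig-led genes, with nuclear receptor half-sites in capitals on either strand (the consensus AGGTCA, the variant AGTTCA, a further variant GGTTCA and a last variant GGGTCA) along with the E-box CACGTG. Promoters run from 250 bases before to 50 bases after a RefSeq gene start and were read 5′ to 3′ along the gene, on build GRCm38.p6. The *Thrb* promoter, whose window was more open in Leydig-like nuclei, is at chr14:17660710-17661009 on the plus strand, and the *Nr0b2* promoter, with the highest Leydig-like to progenitor-like ratio of any member, at chr4:133553126-133553425 on the plus strand.
Thrb promoter: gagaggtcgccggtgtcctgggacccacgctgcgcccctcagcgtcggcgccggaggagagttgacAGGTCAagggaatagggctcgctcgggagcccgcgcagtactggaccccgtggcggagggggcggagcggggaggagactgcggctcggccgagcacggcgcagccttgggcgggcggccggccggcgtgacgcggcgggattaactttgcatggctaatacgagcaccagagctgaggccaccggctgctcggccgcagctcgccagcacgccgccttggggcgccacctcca
Nr0b2 promoter: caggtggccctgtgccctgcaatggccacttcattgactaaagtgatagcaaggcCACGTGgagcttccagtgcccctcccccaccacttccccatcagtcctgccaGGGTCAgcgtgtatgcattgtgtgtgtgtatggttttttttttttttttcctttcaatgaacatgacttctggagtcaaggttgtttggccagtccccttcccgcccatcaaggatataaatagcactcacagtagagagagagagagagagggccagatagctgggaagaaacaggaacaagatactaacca
Each held 1 half-site, and *Nr0b2* also held a CACGTG. Over 32851 RefSeq promoters of this length 43.7% held at least 1 of the half-sites and 7.15% a CACGTG, and of the 51 promoters of members 23 (45.1%) and 5 (9.80%) did.

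The retinoic acid receptor genes went elsewhere. *Rarb*, itself a classical retinoic acid target, measured 104 CPM in mesonephric mesenchyme-like nuclei (93.0 to 116), 72.2 in progenitor-like (68.9 to 75.7), 65.5 in pericyte-like, 64.4 in immune-like, 46.9 in surface epithelium-like, 35.2 in endothelial-like, 32.1 in *Pax8*-led, 20.2 in Leydig-like, 13.0 in germ-like and 11.9 CPM in Sertoli-like nuclei, with 0 UMIs in erythroid-like nuclei. Mesonephric mesenchyme-like nuclei stood 2.79-fold (2.47 to 3.13) and progenitor-like nuclei 2.84-fold (2.64 to 3.05) above all others. Within the progenitor-like class at the finer clustering, *Rarb* was 103 CPM in the larger non-contractile cluster, 64.2 CPM in the cluster with high *Mki67* and *Top2a* RNA and 37.04 CPM in the contractile-like one. Removal of nuclei above the automatic doublet threshold left it at 4.52 CPM in germ-like, 2.01 in Sertoli-like, 4.62 in Leydig-like, 11.3 in endothelial-like and 26.4 CPM in immune-like nuclei.

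*Rarg* measured 13.3 CPM in germ-like nuclei (11.7 to 14.9), 13.2 in immune-like, 10.2 in pericyte-like, 9.66 in mesonephric mesenchyme-like, 8.59 in endothelial-like, 8.17 in surface epithelium-like, 6.67 in progenitor-like, 2.67 in *Pax8*-led, 2.43 in erythroid-like, 1.70 in Leydig-like and 1.12 CPM in Sertoli-like nuclei. Germ-like nuclei were 2.49 times all others (2.11 to 2.94), but the germ-like and mesonephric mesenchyme-like levels overlapped. Nuclei above the automatic doublet threshold held 90.9% of the Sertoli-like and 60% of the Leydig-like *Rarg* UMIs, and without them the levels were 0.143 and 1.03 CPM on 1 and 6 UMIs. *Rara* was flatter, between 21.6 and 40.0 CPM in the 6 classes of at least 300 nuclei, highest in Sertoli-like nuclei. All 3 retinoic acid receptor genes thus had Leydig-like levels at or near the low end.

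The *Rarb* promoter (chr14:16575427-16575726, minus strand) is shown for its arrangement of half-sites, a direct repeat spaced by 5 bases at base 198 of the window.
Rarb promoter: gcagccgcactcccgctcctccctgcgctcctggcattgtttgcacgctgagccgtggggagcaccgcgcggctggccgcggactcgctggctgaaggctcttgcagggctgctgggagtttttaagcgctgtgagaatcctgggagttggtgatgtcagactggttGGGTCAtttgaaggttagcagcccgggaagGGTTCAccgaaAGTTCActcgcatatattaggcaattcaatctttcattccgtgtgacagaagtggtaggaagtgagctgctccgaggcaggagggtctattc
A direct repeat of these half-sites spaced by 5, searched on both strands, was held by 32 of the 32851 promoters (0.0974%), and *Rarb* was the only one of the 51 member promoters with it.

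Germ-like nuclei led for 5 members. *Nr5a2*, the liver receptor homologue that keeps pluripotency genes active in early embryos, measured 245 CPM in germ-like nuclei (238 to 252), 50.7 in endothelial-like, 26.8 in erythroid-like, 17.5 in pericyte-like, 13.2 in immune-like, 9.36 in Sertoli-like, 5.34 in *Pax8*-led, 2.15 in Leydig-like, 1.61 in mesonephric mesenchyme-like, 1.27 in surface epithelium-like and 1.21 CPM in progenitor-like nuclei. The ratio to all other nuclei, 45.0 (40.1 to 50.6), was the highest of any member outside the immune-like class. At 2000 UMIs a nucleus, 38.7% of germ-like nuclei had a *Nr5a2* UMI, against 0 of 392 mesonephric mesenchyme-like nuclei, which allows a share of up to 0.765% at that depth (3 counts of the total). Unthinned, the shares were 86.9% and 1.27%, at median depths of 15521 and 6596 UMIs.

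The germ-like class held the deepest nucleus, with 705765 UMIs or 3.44% of the class total, and without it *Nr5a2* was 251 CPM. Endothelial-like nuclei carried *Nr5a2* at 20.7% of the germ-like level and germ marker RNA at 7.81% of its own. At the automatic doublet threshold the endothelial-like level was 34.0 CPM on 18 UMIs, the germ-like level was 329 CPM, and no *Nr5a2* UMI was left in erythroid-like, pericyte-like or immune-like nuclei.

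*Esrrb*, an orphan receptor related to the oestrogen receptors that supports self-renewal of embryonic stem cells, measured 35.9 CPM in germ-like nuclei (33.4 to 38.6), 9.73 in erythroid-like, 6.12 in Leydig-like, 2.67 in *Pax8*-led, 2.58 in endothelial-like, 1.73 in Sertoli-like, 1.46 in pericyte-like, 1.09 in surface epithelium-like, 0.667 in progenitor-like and 0.322 CPM in mesonephric mesenchyme-like nuclei, with 0 UMIs in immune-like nuclei. Germ-like nuclei stood 18.8-fold above the rest (15.3 to 23.2), and Leydig-like nuclei came next among the large classes. At the finer clustering the 345 nuclei of the smaller germ-like cluster, which had more *Mki67* and *Top2a* RNA (670 against 235 CPM), held 81.4 CPM of *Esrrb* (73.6 to 89.9) and the 628 of the larger one 21.9 CPM (19.6 to 24.3). *Nr5a2* was 336 and 217 CPM in them. More nuclei of the larger cluster lay above the automatic doublet threshold, 31.1% against 9.57%, and the part of doublets in this difference was not tested.

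*Nr1d2*, the partner of *Nr1d1* among the REV-ERB clock repressors, measured 134 CPM in germ-like nuclei (129 to 139), 32.2 in endothelial-like, 23.2 in *Pax8*-led, 21.4 in Sertoli-like, 17.6 in immune-like, 16.9 in surface epithelium-like, 13.1 in pericyte-like, 12.2 in erythroid-like, 11.5 in progenitor-like, 10.3 in Leydig-like and 9.98 CPM in mesonephric mesenchyme-like nuclei. *Nr6a1*, the germ cell nuclear factor that silences pluripotency genes as embryonic cells differentiate, measured 724 CPM in germ-like nuclei (713 to 736), 492 in Sertoli-like (479 to 507), 390 in endothelial-like, 307 in *Pax8*-led, 296 in Leydig-like, 289 in erythroid-like, 255 in immune-like, 207 in surface epithelium-like, 179 in progenitor-like, 170 in pericyte-like and 169 CPM in mesonephric mesenchyme-like nuclei. The germ-like ratio to all other nuclei was 9.14 for *Nr1d2* (8.46 to 9.89) and 2.72 for *Nr6a1* (2.65 to 2.78), so *Nr6a1* was broad where *Nr5a2*, *Esrrb* and *Nr1d2* were concentrated. *Rarb*, *Thrb* and *Nr1d2* lie in that order along chromosome 14, from base 16430839 to 18239127, and their leading classes were mesonephric mesenchyme-like, Leydig-like and germ-like.

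Sertoli-like and surface epithelium-like nuclei shared *Vdr*, the vitamin D receptor gene. It measured 29.97 CPM in surface epithelium-like (25.6 to 34.9), 15.6 in Sertoli-like (13.2 to 18.2), 7.32 in immune-like, 6.24 in *Pax8*-led, 4.86 in erythroid-like, 3.01 in endothelial-like, 2.91 in pericyte-like, 2.24 in germ-like, 1.75 in progenitor-like, 1.02 in Leydig-like and 0.966 CPM in mesonephric mesenchyme-like nuclei. The ratios to all other nuclei were 7.76 (6.36 to 9.45) and 3.63 (2.96 to 4.43). Among Sertoli-like nuclei, *Vdr* was 20.6 CPM in the larger cluster and 8.2 CPM in the smaller one with more *Mki67* and *Top2a* RNA. More nuclei of the smaller cluster lay above the automatic doublet threshold, 26.3% against 10.4%. The part of doublets in this difference was not tested. Germ-like *Vdr* was 0.271 CPM at the automatic doublet threshold.

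*Pgr*, the progesterone receptor gene, measured 16.4 CPM in mesonephric mesenchyme-like (12.2 to 21.6), 16.3 in surface epithelium-like (13.1 to 20.1), 8.74 in pericyte-like, 5.92 in progenitor-like, 5.85 in immune-like, 5.34 in *Pax8*-led, 3.12 in germ-like, 1.93 in Sertoli-like, 1.29 in endothelial-like and 0.566 CPM in Leydig-like nuclei, with 0 UMIs in erythroid-like nuclei. Among the classes where it was seen it was lowest, on 5 UMIs, in Leydig-like nuclei. Within the progenitor-like class it ran opposite to *Rarb*, at 12.0 CPM in the contractile-like cluster and 2.498 CPM in the larger non-contractile one. Once nuclei above the automatic doublet threshold were removed, contractile-like nuclei formed their own class at 13.5 CPM, and *Pgr* was 3.67 CPM in progenitor-like and 0.286 CPM in Sertoli-like nuclei.

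The NR4A receptors are rapid-response genes without a classical ligand. *Nr4a1* measured 22.9 CPM in Sertoli-like (19.99 to 26.1), 16.0 in pericyte-like, 14.2 in endothelial-like, 11.2 in Leydig-like, 8.54 in surface epithelium-like, 8.44 in germ-like, 6.13 in progenitor-like, 5.85 in immune-like, 3.86 in mesonephric mesenchyme-like and 2.67 CPM in *Pax8*-led nuclei, with 0 UMIs in erythroid-like nuclei. *Nr4a2* measured 24.9 CPM in *Pax8*-led (16.6 to 36.0), 19.3 in endothelial-like, 17.0 in Sertoli-like, 14.4 in surface epithelium-like, 13.5 in progenitor-like, 13.2 in immune-like, 10.3 in mesonephric mesenchyme-like, 10.2 in pericyte-like, 9.73 in erythroid-like, 8.84 in Leydig-like and 4.58 CPM in germ-like nuclei. Sertoli-like nuclei led for *Nr4a1* by 2.90 times (2.47 to 3.40), whereas the *Pax8*-led ratio of *Nr4a2*, 2.25 (1.49 to 3.28) on 28 UMIs, was 1.04 under the stricter minimum of genes and fragments. *Nr4a3* had 24 UMIs in all.

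Both remaining PPAR genes were highest in the 68 immune-like nuclei. *Pparg*, the regulator of fat cells and some macrophages, had 110 UMIs in all and was chosen after its values were seen. It measured 62.9 CPM in immune-like nuclei (45.5 to 84.8) and at most 2.58 CPM in any other class, a ratio of 71.7 (47.7 to 107). *Ppard*, which is broadly expressed, measured 65.9 CPM in immune-like (48.0 to 88.1), 51.0 in pericyte-like, 33.4 in Leydig-like, 31.6 in erythroid-like, 30.3 in *Pax8*-led, 29.9 in mesonephric mesenchyme-like, 29.8 in Sertoli-like, 29.6 in endothelial-like, 26.9 in surface epithelium-like, 26.4 in germ-like and 26.2 CPM in progenitor-like nuclei. Its ratio was 2.34 (1.70 to 3.14), with the pericyte-like interval overlapping. At the automatic doublet threshold the immune-like levels were 112 and 119 CPM.

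**Figure D3:**
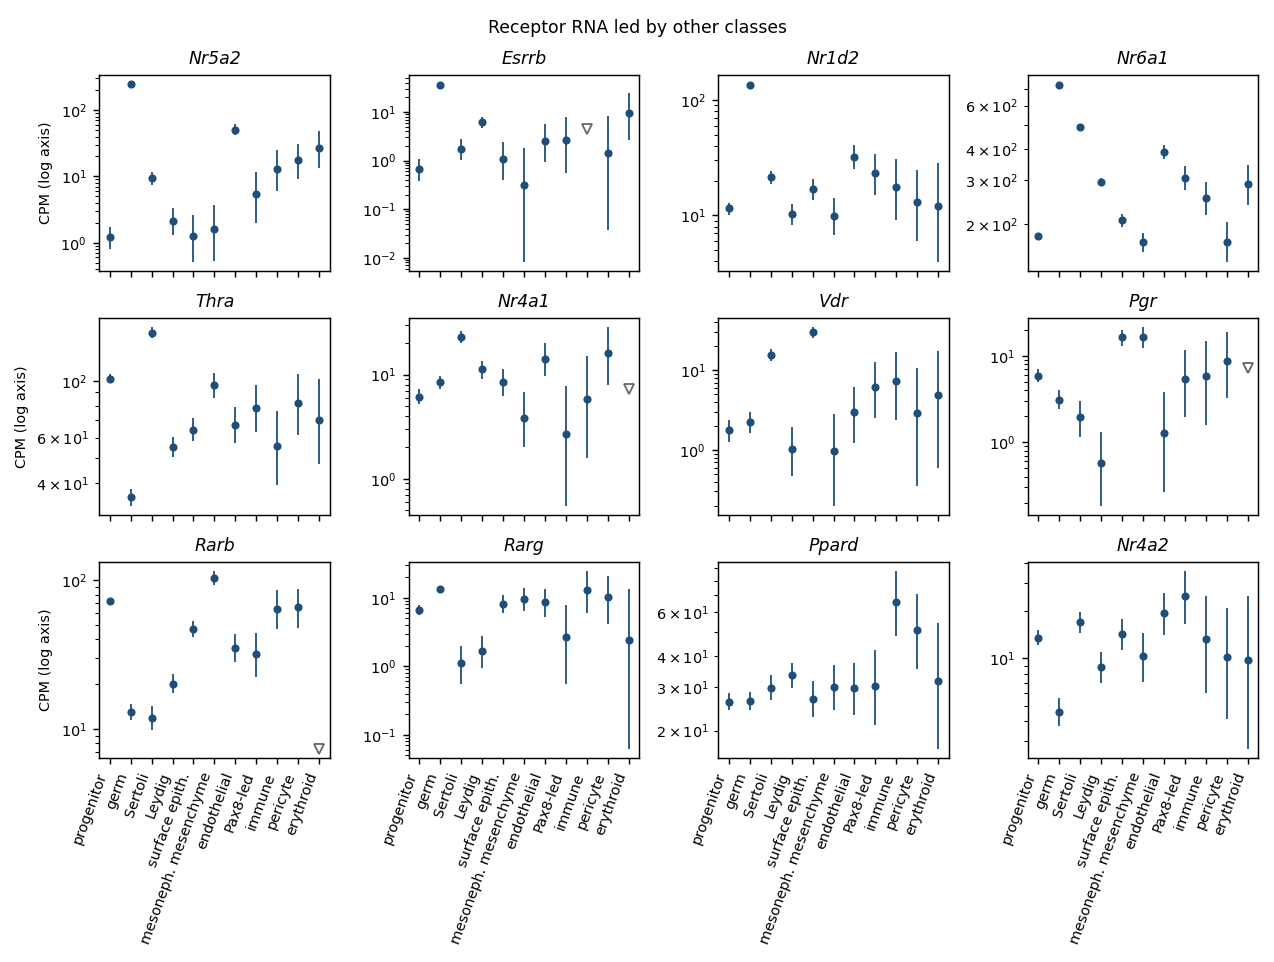
CPM of 12 members that led in other classes or in more than 1 (*Nr5a2*, *Esrrb*, *Nr1d2*, *Nr6a1*, *Thra*, *Nr4a1*, *Vdr*, *Pgr*, *Rarb*, *Rarg*, *Ppard* and *Nr4a2*) in each of the 11 classes on a log axis, with exact Poisson 95% intervals; open triangles stand for 0 UMIs and are drawn at the level of 3 counts. *Nr5a2* falls from 245 CPM in germ-like to 1.21 CPM in progenitor-like nuclei, while *Ppard* stays between 26.2 and 65.9 CPM.

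The other 8 members with at least 100 UMIs did not stand 2-fold above the rest in any class of the main clustering with 20 or more of their UMIs. On fewer UMIs, *Nr1h2* and *Esrra* were each 17.6 CPM in immune-like nuclei, against 7.49 and 7.10 CPM over all nuclei kept. With nuclei above the automatic doublet threshold removed, endothelial-like *Nr2c1* and germ-like *Nr2f6* were higher. Germ-like *Nr2f6* was 1.91 times all other nuclei (1.66 to 2.21), at 15.7 CPM. Without the nuclei above that threshold it was 18.5 CPM, against 5.30 to 9.23 CPM in every other class of at least 300 nuclei. A class of 69 nuclei, named supporting-like in that setting, had 19.5 CPM on 13 UMIs. Between the lowest and highest of the 6 large classes, the orphan receptor genes *Nr2c2* and *Nr2c1* differed 1.27-fold and 1.29-fold, *Nr1h2* (an oxysterol receptor, LXR beta) 1.62-fold, the retinoid X receptor genes *Rxrb* and *Rxra* 1.84-fold and 1.94-fold, *Rara* 1.85-fold, *Nr2f6* 2.37-fold and *Esrra* 2.55-fold. Per kilobase of gene, since nuclear counts include introns, the highest members over all nuclei were *Thra* at 2.83, *Nr2c2* at 2.79, *Nr6a1* at 1.90, *Nr1h2* at 1.73, *Rxrb* at 1.69 and *Rora* at 1.65 CPM per kb. *Rora* thus had the highest CPM without the highest level per length. The 10 members under 100 UMIs were *Rxrg* (73 UMIs), *Hnf4g* (64), *Nr1d1* (50), *Nr1h3* (28), *Nr1i3* (25), *Nr1i2* (24), *Nr4a3* (24), *Nr2e1* (13), *Hnf4a* (10) and *Nr2e3* (9), which missed the minimum set for the counts. Among them, and chosen after their values were seen, *Rxrg* was 8.08 times all other nuclei in surface epithelium-like nuclei (4.85 to 13.2) on 28 UMIs, *Hnf4g* 8.27 times in germ-like nuclei (4.61 to 15.6) on 48 UMIs and *Nr1i2* 6.83 times in Sertoli-like nuclei (2.81 to 16.6) on 12 UMIs, and the 13 *Nr2e1* UMIs were in germ-like nuclei. Of the 12 *Nr1i2* UMIs, 75% lay in nuclei above the automatic doublet threshold. Without such nuclei, Sertoli-like *Nr1i2* was 0.430 CPM on 3 UMIs, beside 0.367 CPM in progenitor-like nuclei.

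The study set its interstitial progenitors against fetal Leydig cells, and 22 members had 100 UMIs or more over both classes. At least 2-fold higher in Leydig-like nuclei were 5 of these (22.7%, beside 10.7% of the 12244 genes measured), namely *Thrb* at 12.1 times (11.2 to 13.1), *Nr1h4* at 10.1 (7.56 to 13.7), *Rora* at 4.33 (4.26 to 4.40), *Ppara* at 3.40 (3.002 to 3.85) and *Rorb* at 2.09 (1.77 to 2.47). At least 2-fold higher in progenitor-like nuclei were 3 (13.6%, beside 14.55% of genes), namely *Pgr* at 10.5 times (4.37 to 32.7), *Rarg* at 3.93 (2.31 to 7.18) and *Rarb* at 3.58 (3.07 to 4.20). This progenitor-like class includes contractile-like nuclei, 32.5% of it, which the study kept as a separate cluster. They formed their own class at the automatic doublet threshold. There *Pgr* was 13.5 CPM in contractile-like and 3.67 in progenitor-like nuclei, *Rarg* 10.2 and 5.38, and *Rarb* 32.9 and 87.3 CPM. As a Leydig-like over progenitor-like ratio *Pgr* was 0.0957, and it ran from 0.0466 at the automatic doublet threshold to 0.349 under the stricter minimum of genes and fragments. *Nr1h4* was lowest, at 5.004, with classes from ATAC alone. The median log2 ratio was 0.10 over the 22 members and 0.02 over all genes. The progenitor-like share was near the background.

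Among the remaining 14, *Rxra*, *Thra* and *Nr4a2* were 1.94, 1.84 and 1.53 times higher in progenitor-like nuclei, while *Nr4a1*, *Nr6a1* and *Esrra* were 1.83, 1.66 and 1.51 times higher in Leydig-like nuclei. *Nr2c2* was even, at a Leydig-like to progenitor-like ratio of 1.03 (0.98 to 1.08). *Rorb* fell below 2-fold, to between 1.54 and 1.92, under the automatic doublet threshold, the stricter minimum, the finer clustering and classes from ATAC alone. *Rarb* moved the other way: 84.3% of its Leydig-like UMIs lay in the 152 nuclei (19.1% of the class, with 33.2% of its UMIs) above the automatic doublet threshold, and after their removal and a new clustering, in which contractile-like nuclei formed their own class, the Leydig-like level was 4.62 CPM against 87.3 CPM in progenitor-like nuclei. In that setting *Rxra* (6.67 CPM in Leydig-like, 18.1 in progenitor-like nuclei) and *Thra* (46.2 and 105) also passed 2-fold towards progenitor-like nuclei, while *Pgr* and *Rarg* had under 100 UMIs over both classes, so the count of 3 was then made up of *Rarb*, *Rxra* and *Thra*.

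**Figure D4:**
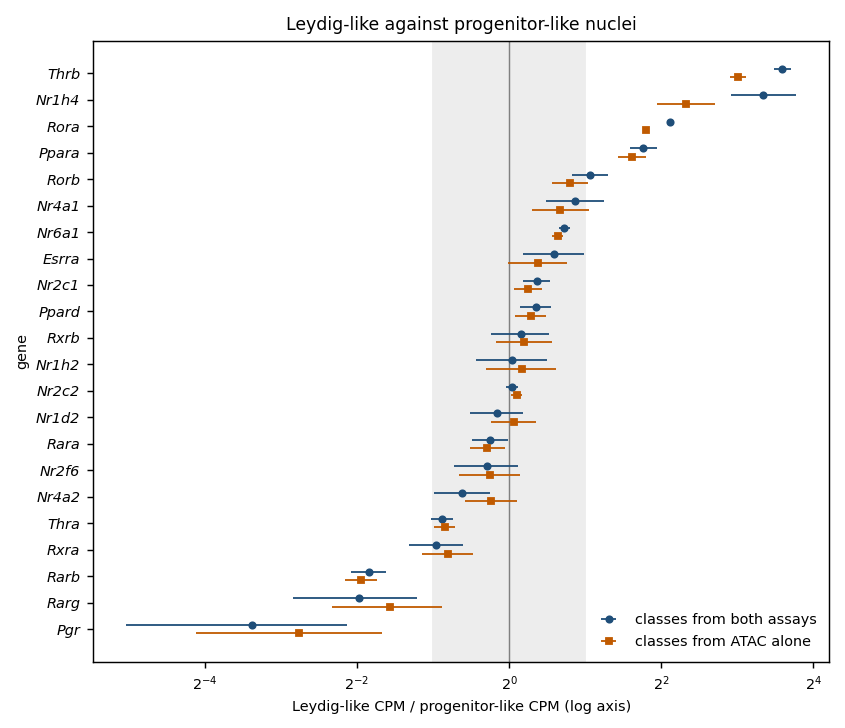
Leydig-like to progenitor-like ratio of CPM for the 22 members with at least 100 UMIs over both classes, on a log axis with exact 95% intervals, for classes from both assays and from ATAC alone. The grey band marks ratios from 0.5 to 2. *Thrb*, *Nr1h4*, *Rora* and *Ppara* lie above it in both sets, and *Rarb*, *Rarg* and *Pgr* below it.

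Promoter opening was then set beside RNA for the same members. Fragments with a cut within 1 kb of the gene start were counted in classes made from RNA alone, and RNA ratios in classes made from ATAC alone. The RNA-alone progenitor-like class includes a cluster with *Myh11* among its leading genes, counted there by its highest marker score. Both ratios lay on the same side of 1 for 16 of 22 members (72.7%), beside 63.3% of genes. Where both intervals excluded 1, this held for 4 of 5 members (80%), beside 85.7% of genes, so neither share is far from the background.

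The 4 were *Thrb*, *Ppara*, *Nr2c2* and *Rxra*. The *Thrb* promoter, shown above, had 45 fragments in Leydig-like and 149 in progenitor-like nuclei, which per fragment of each class is a ratio of 1.64 (1.15 to 2.30), against 8.09 in RNA. *Ppara* had a promoter ratio of 1.30 (1.01 to 1.66) and *Rxra* of 0.63 (0.46 to 0.84). The fifth, *Nr4a1*, went opposite, with 0.51 (0.29 to 0.86) at the promoter and 1.60 in RNA.

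*Rora*, *Rorb*, *Rarb* and *Pgr* showed no promoter difference at this depth, with ratios of 1.05 (0.76 to 1.42), 1.002 (0.69 to 1.42), 1.09 (0.70 to 1.63) and 0.95 (0.45 to 1.81). *Nr0b2*, below the UMI minimum, had the highest promoter ratio between these classes. Its window held 13.9 fragments per 1000000 in Leydig-like, 9.29 in Sertoli-like and, on 7 fragments, 9.02 in endothelial-like nuclei, against 2.91 in progenitor-like, 3.21 in germ-like and 0.390 in surface epithelium-like nuclei. The Leydig-like to progenitor-like ratio was 4.77 (3.09 to 7.33). The endothelial-like ratio to all other nuclei, 2.09, had an interval of 0.826 to 4.40. Leydig-like and Sertoli-like nuclei were also among the classes with the most *Nr0b2* RNA, as was the *Pax8*-led class, with 8 *Nr0b2* UMIs and 1 promoter fragment.

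**Figure D5:**
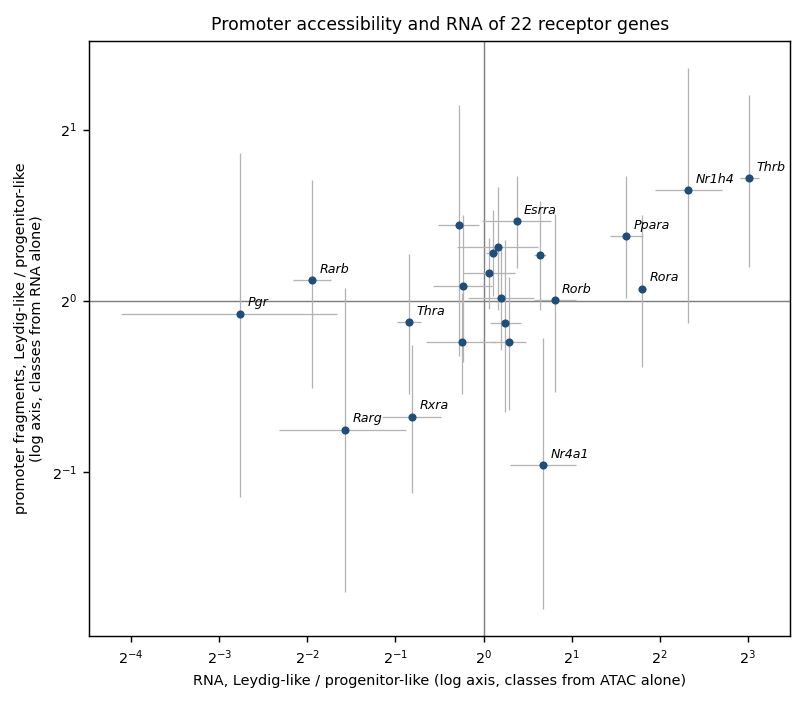
Leydig-like to progenitor-like ratio of promoter fragments (classes from RNA alone) against that of RNA (classes from ATAC alone) for 22 members, both on log axes with exact 95% intervals. *Thrb* lies at 1.64 in the promoter, well short of its RNA ratio, *Rora* lies at 1.05, and *Nr4a1* lies on opposite sides in the 2 assays.

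*Esrrb* has several annotated starts. In the window around chr12:86470117, which holds no deposited peak, germ-like nuclei had 7.33 fragments per 1000000, 12.4 times all other nuclei (7.19 to 22.4), on 57 fragments. Progenitor-like nuclei had 0.712, Leydig-like 0.644 and Sertoli-like nuclei 0.227 per 1000000. At an upstream start, chr12:86421644, the germ-like value was 5.4 and the Leydig-like one 8.38 per 1000000, with no interval computed for their difference. At the gene start used for all members, germ-like nuclei stood at 1.54 times all others (0.691 to 3.19) on 11 fragments, and Sertoli-like nuclei at 2.64 (1.15 to 5.58). At that start only, germ-like promoter ratios of the other germ-led genes were 0.768 (0.688 to 0.856) for *Nr1d2*, 0.897 (0.644 to 1.23) for *Rarg*, 1.11 (0.964 to 1.28) for *Nr6a1* and 1.04, on 4 fragments, for *Nr5a2*.

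Inside the gene bodies of members lay 228 deposited peaks with at least 20 cuts. At least 2-fold above all other nuclei in Leydig-like nuclei were 16 (7.02%, beside 5.79% of the 60647 gene-body peaks), and within the 5 Leydig-led genes 7 of 71 (9.86%). In germ-like nuclei they were 15 (6.58%, beside 10.6%), and within the 5 germ-led genes 6 of 39 (15.4%). The Leydig-like count was 3 of 47 peaks for *Rora*, 2 of 6 for *Nr1h4*, 1 of 12 for *Thrb*, 1 of 5 for *Rorb* and 0 of 1 for *Ppara*. Other classes also had peaks past 2-fold at several of these genes. *Rora* had 6 Sertoli-like, 5 progenitor-like, 4 surface epithelium-like and 2 germ-like peaks, *Thrb* had 2 Sertoli-like and 1 germ-like, and *Nr1h4* had 2 progenitor-like. A call also needed 20 cuts in the class, which larger classes reach more easily. The share of all gene-body peaks was computed only for Leydig-like and germ-like nuclei, so counts of other classes have no background and cannot be ranked against these. The germ-led *Esrrb* had 4 Leydig-like and 2 germ-like peaks of 11. Germ-like peaks were 2 of 14 for *Nr6a1*, 2 of 6 for *Rarg*, 0 of 6 for *Nr5a2* and 0 of 2 for *Nr1d2*, and *Nr5a2* had 2 Sertoli-like peaks.

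The peaks below were picked for their class ratio, which is given as a description. Their intervals treat each cut as independent, although cuts come in pairs from fragments, so they are too narrow even for counting error. In an intron of *Rora*, 134.731 kb after its start, the peak at chr9:68788083-68788951 held 44 of its 75 cuts in Leydig-like nuclei, 15.9 times all other nuclei (9.79 to 26.0). In an intron of *Thrb*, 248.827 kb after its start, the peak at chr14:17909294-17910151 held 23 of its 53 cuts there, at 8.56 times (4.75 to 15.2). An intronic peak of *Nr1h4*, 6.394 kb after its start, stood at 4.40 times (2.74 to 6.91). The central 200 bases of the *Rora* peak (chr9:68788417-68788616) and of the *Thrb* peak (chr14:17909623-17909822), on the plus strand of GRCm38.p6, are printed for both genes whose promoters differed little beside their RNA.
Rora peak centre: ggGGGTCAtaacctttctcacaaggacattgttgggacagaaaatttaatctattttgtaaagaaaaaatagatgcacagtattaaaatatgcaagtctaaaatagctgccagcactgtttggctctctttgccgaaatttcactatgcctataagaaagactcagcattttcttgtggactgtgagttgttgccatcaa
Thrb peak centre: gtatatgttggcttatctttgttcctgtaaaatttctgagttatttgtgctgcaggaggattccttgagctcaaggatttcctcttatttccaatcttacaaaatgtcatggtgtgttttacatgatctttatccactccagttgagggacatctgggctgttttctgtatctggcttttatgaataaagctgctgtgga
The *Rora* stretch held 1 half-site, GGGTCA, and the *Thrb* stretch none, where 37.6% of 109183 peak centres of this length held at least 1. Elsewhere, an intronic *Thra* peak 24.12 kb after its start was 2.92 times as open in Sertoli-like nuclei as in all others (2.33 to 3.64). An intronic *Rarb* peak 117.253 kb after its start was 4.80 times as open in progenitor-like nuclei as in all others (2.53 to 9.87). Neither was open in that class alone. In cuts scaled to each class total, the *Rarb* peak stood at 4.06 in progenitor-like and 4.09 in mesonephric mesenchyme-like nuclei. On the same scale the *Thra* peak stood at 37.4 in Sertoli-like and 26.5 in surface epithelium-like nuclei. Each of these 5 intronic peaks thus leaned to a class that led for its gene in RNA, by the way the peaks were picked.

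Genes that work with these receptors were read in the same Leydig-like to progenitor-like comparison, where 10.7% of all genes were at least 2-fold higher in Leydig-like nuclei, 14.55% in progenitor-like nuclei, and the median log2 ratio of all genes was 0.02. Of the 15 nuclear receptor coregulators, all measured, 0 were 2-fold higher in Leydig-like nuclei, and *Ppargc1a* and *Tbl1xr1* were higher in progenitor-like nuclei, at Leydig-like to progenitor-like ratios of 0.31 and 0.48. Their median log2 ratio was 0.18. The thyroid hormone deiodinase genes *Dio2* and *Dio3* had 11 and 3 UMIs over both classes, too few for a comparison.

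Of 10 measured clock genes, 5 were 2-fold higher in Leydig-like nuclei and 1, *Cry1*, in progenitor-like nuclei, with a median log2 ratio of 1.01, beside 10.7% and 14.55% of all genes and a median of 0.02. The repressor gene *Bhlhe40* was 17.8 times higher (13.5 to 23.9), *Npas2* 14.0 (11.5 to 17.1), *Per2* 12.7 (10.5 to 15.5), *Arntl*, the partner of CLOCK and a textbook target of ROR and REV-ERB proteins, 7.45 (6.59 to 8.43) and *Per3* 2.20 (1.75 to 2.76). *Arntl* measured 111 CPM in Leydig-like, 56.3 in germ-like and 15.0 in progenitor-like nuclei, and *Clock* itself was even at 0.995. The REV-ERB gene *Nr1d2*, by contrast, was 10.3 and 11.5 CPM in Leydig-like and progenitor-like nuclei.

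Of 6 measured textbook LXR targets, the cholesterol exporter gene *Abca1* (2.90 times), the lipid remodelling gene *Lpcat3* (3.65) and the desaturase gene *Scd1* (3.97) were 2-fold higher in Leydig-like nuclei and *Mylip* in progenitor-like nuclei, with a median log2 ratio of 1.18 beside 0.02 over all genes, while the LXR beta gene *Nr1h2* was even at 1.03 (0.74 to 1.42). Of 8 measured PPAR targets, the fatty acid transporter gene *Cd36* (14.2) and *Acadm* (2.37), an enzyme gene of fat oxidation, were at least 2-fold higher in Leydig-like nuclei and 0 in progenitor-like nuclei, with a median log2 ratio of 0.52. Of 4 measured immediate early genes, 0 were at least 2-fold higher in Leydig-like nuclei and *Egr1* was in progenitor-like nuclei, with a median log2 ratio of 0.04. *Fosl2* and *Jun* stood below 2-fold at Leydig-like to progenitor-like ratios of 1.52 (1.33 to 1.73) and 1.48 (1.23 to 1.79), as did *Nr4a1* at 1.83 (1.40 to 2.38).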

How the data were processed

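RNA counts and ATAC cut counts in peaks were made by the authors with Cell Ranger ARC 2.0.1 on mm10 and deposited as whole-number counts, with the ATAC fragments, for 1 library of each assay. The members and gene lists were chosen with earlier results of these data known. Nuclei were kept with under 10% mitochondrial, 10% ribosomal and 0.5% haemoglobin UMIs, at least 500 genes, over 20% of fragments at peaks and 250 to 25000 fragments there. The 470 nuclei with the highest Scrublet scores (scanpy 1.11.5) were removed. The study removed nuclei that scDblFinder marked in both assays, a step described after Cell Ranger ARC, and the sources do not say whether the deposited counts precede it. It also corrected its RNA counts for ambient RNA with DecontX, and no such correction was made here. The Scrublet score's automatic threshold would mark 1345 (17.5%). Clusters came from Seurat 5.3.0 (R 4.3.3), weighted over both assays at resolution 0.3, without members or lists among 2000 variable genes, and the clusters were named from 81 markers of 14 cell types. CPM is UMIs per 1000000 of a class, with exact Poisson intervals, and shares have Clopper-Pearson intervals (scipy 1.17.1). Ratios have exact binomial intervals, and only these were run on simulated data, for Leydig-like against progenitor-like nuclei. The simulated counts followed the Poisson model that the interval assumes. They thus checked the calculation only, and held no variation between nuclei, doublets or paired cuts. A ratio was counted from 2-fold, with 100 UMIs over both classes, or 100 in all and 20 in the class. Values in every class are given for members with at least 200 UMIs that pass 2-fold in either comparison. Gene-body peaks and printed peaks were added after other values were seen. Thinning to 2000 UMIs left out 75 nuclei. A result on thyroid hormone handling is not reported here.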

Additional observations from a re-analysis of the deposited data

How the results depend on the processing

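With 1 library per assay every limit is one of processing and depth. With no minimum of UMIs beyond 1, 9 members were 2-fold higher in Leydig-like nuclei, 7 in progenitor-like nuclei and 31 in some class, and with a minimum of 1000 genes and 1000 fragments at peaks 1 was 2-fold higher in progenitor-like nuclei, since *Pgr* and *Rarg* then had under 100 UMIs. In the other alternatives (no doublet removal, the automatic threshold, finer clusters, classes from RNA or ATAC alone, mean CPM of each nucleus) these counts stayed between 4 and 5, 2 and 4, and 18 and 21, and the promoter count between 14 and 17. The share of all genes is not given for any of these alternatives, so the counts have no background beside them and cannot be read as enrichment. No ratio that was followed changed direction, with *Nr4a2* followed in 4 and *Ppard* and *Pparg* in 6 of the 8 alternatives. Leydig-like *Nr0b2*, Sertoli-like *Vdr*, mesonephric mesenchyme-like *Pgr* and *Rarb* against all other nuclei and ratios nearer to even were not followed. The germ-like ratio of *Nr5a2* ran from 19.3, with classes from ATAC alone, to 117, at the automatic threshold, and that of *Esrrb* from 14.9 to 30.5. The immune-like ratio ran from 59.5 to 189 for *Pparg* and from 2.12 to 4.27 for *Ppard*, the progenitor-like ratio of *Rarb* from 2.71 to 4.34 and the Leydig-like ratio of *Nr1h4* from 8.57 to 14.46. In Leydig-like over progenitor-like nuclei *Nr1h4* ran from 5.004 to 10.9, *Thrb* from 8.09 to 12.3, *Rora* from 3.49 to 4.96, *Ppara* from 3.08 to 3.78, *Rorb* from 1.54 to 2.31, *Rarg* from 0.191 to 0.337, *Rarb* from 0.0529 to 0.335 and *Pgr* from 0.0466 to 0.349. No paired analysis was possible because each assay had 1 library and no result came from a test.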

Other observations

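Genes of the related lists also differed between classes outside the Leydig-like to progenitor-like comparison. *Slc16a10*, a transporter of aromatic amino acids and thyroid hormone, measured 613 CPM in erythroid-like and 177 CPM in immune-like nuclei, and 1.46 to 31.0 CPM in every other class. Among the output genes of the clock, *Tef* measured 192 CPM in Sertoli-like nuclei and 17.0 to 59.8 CPM elsewhere, while *Hlf* measured 28.5 CPM in germ-like, 19.6 in mesonephric mesenchyme-like, 11.6 in surface epithelium-like, 10.2 in immune-like, 1.36 in Leydig-like and 1.32 CPM in Sertoli-like nuclei.

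At the *Hnf4g* promoter, whose gene had 64 UMIs in all, germ-like nuclei had 3.73 fragments per 1000000, 3.55 times all other nuclei (2.07 to 6.06), on 29 fragments. At the gene start used for all members, the germ-like ratio of the germ-led members ran from 0.768 for *Nr1d2* to 1.54 for *Esrrb*. That range leaves out their other starts. The *Esrrb* window at another start, given above, had a higher germ-like ratio. A peak over a further *Nr6a1* RefSeq promoter stood at 2.56 (1.43 to 4.47) on 21 germ-like cuts, and was picked for its ratio.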
